A study of Mus musculus with 10 samples.

Results

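The genes described here are 10 genes by which normal astrocytes take up transmitter, move water and potassium, couple to each other and run their metabolism: Slc1a2, Slc1a3, Aqp4, Kcnj10, Gja1, Gjb6, Glul, Aldoc, Aldh1l1 and S100b. They were chosen by name, and they and the gene lists set beside them were chosen with earlier results of these data known. Each is represented by 1 probe set, the brightest on average over the 10 arrays among those annotated to that gene alone, and all 10 were found among the 18193 genes measured. Total RNA of male mice was taken at 24 h, from the ischemic hemisphere where the middle cerebral artery had been occluded (MCAO, a stroke model that blocks a main artery of the forebrain) or from the control hemisphere where surgery was a sham. The groups were Hsp72Tg MCAO with 3 arrays, Hsp72Tg sham with 2, WT MCAO with 3 and WT sham with 2, where Hsp72Tg mice overexpress the inducible heat shock protein Hsp72 and WT mice are wild type. The labels give neither the promoter that drives the transgene nor the age of the mice. The sham mice of each genotype serve as its controls. All values are log2 expression values made with RMA, so a difference of 1 is a 2-fold difference. The labels do not say whether each array holds 1 mouse, and p-values measure the spread between these samples, which may be technical.

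Astrocytes clear glutamate from the synapse through the transporters GLT-1 (Slc1a2) and GLAST (Slc1a3), and glutamine synthetase (Glul) turns it into glutamine that neurons can reuse. Potassium released by firing neurons enters through an inward rectifier channel (Kcnj10), water crosses the endfeet on blood vessels through aquaporin-4 (Aqp4), and gap junctions of the connexins Gja1 and Gjb6 let ions and small molecules pass through the astrocyte network. After stroke many astrocytes become reactive, a state usually recognised by a rise of filament proteins such as Gfap, and aquaporin-4 is widely studied in the brain swelling that follows.

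Across the 10 arrays each homeostatic gene spanned 0.25 (Glul) to 0.98 (Aqp4) log2 units. Most reactive astrocyte markers were over 2-fold higher after MCAO in the same arrays. Over both genotypes, MCAO minus sham changes of the 10 genes ran from -0.15 for S100b to 0.27 for Aqp4 (0.15 with WT sham 1 and 0.16 with Hsp72Tg MCAO 2 left out), 5 above 0 and 5 below, with a median of 0.03 against -0.03 for all genes. At an adjusted p under 0.05 (limma, Benjamini-Hochberg over all genes) 0 of the 10 passed, with adjusted p from 0.172 to 0.851, and 1 (Aldh1l1) had an unadjusted p under 0.05. Of all genes 1.46% passed and 19.1% had an unadjusted p under 0.05. The median absolute change of the 10 was 0.14, against 0.10 for all genes. Gfap had log2 values of 11.31 to 12.22 in the 6 MCAO arrays and 10.05 to 10.77 in the 4 sham arrays, and it rose by 1.60 (SE 0.19, adjusted p = 0.0113 in limma). Of 12 reactive astrocyte markers 11 rose in limma over both genotypes and 0 fell, with a median change of 2.43 over the 12. Steap4, with 0.24 (SE 0.12), did not pass. Within a genotype 5 of the 12 passed in WT and 1 in Hsp72Tg, against 0.055% and 0.022% of all genes. Calls of these markers with 1 array left out are not given here.

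A change that missed the threshold is not shown to be absent, and the 95% confidence intervals give the range of the brightest probe set alone. Other probe sets of Slc1a2, Slc1a3, Aqp4, Gja1, Glul, Aldoc and Aldh1l1 gave values outside that range over both genotypes. Over both genotypes the intervals were narrowest for Aldoc and Glul, where MCAO levels between 0.840 and 1.03 times (Aldoc) and between 0.881 and 1.09 times (Glul) the sham level lay inside. Slc1a2 had an interval of 0.941 to 1.21 times. The widest was that of Kcnj10, at 0.898 to 1.55 times, and that of Aqp4 reached 1.51 times. In bulk tissue, fewer cells of a type and less RNA per cell cannot be told apart, and RMA sets each array to a common distribution, so all changes are relative to the rest of the RNA.

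**Figure D1:**
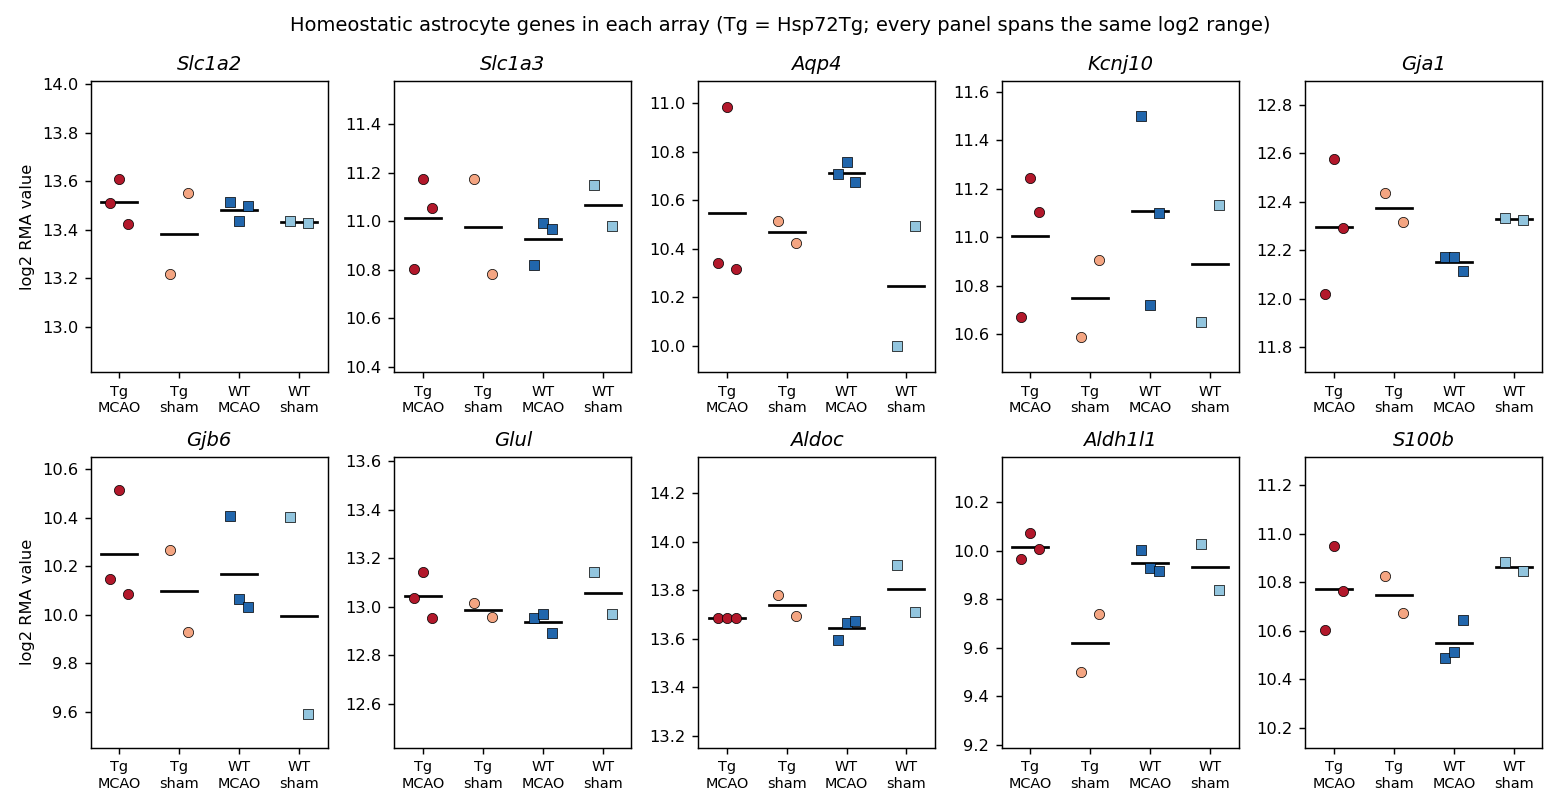
Log2 RMA values of the 10 genes in each array (points) with group means (lines), Hsp72Tg MCAO, Hsp72Tg sham, WT MCAO and WT sham from left to right; every panel spans the same height, with its own starting level. Slc1a2, Glul and Aldoc lie close together in all 10 arrays, Aqp4, Kcnj10 and Gjb6 are spread widest, Aldh1l1 is lowest in Hsp72Tg sham and S100b in WT MCAO.

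In a principal component analysis of all genes, the leading axis (50.3% of variance) placed 5 MCAO arrays between 11.7 and 32.3 and the sham arrays between -23.7 and -20.7. The score of Hsp72Tg MCAO 1 was -12.9, so that array stood apart from the other MCAO arrays on the sham side. WT sham 1 had a cerebellar signal, its Gabra6, a receptor gene of cerebellar granule cells, reading 9.46 where the remaining 9 arrays read 4.15 to 4.49. Hspa1b, which encodes Hsp72, read 9.12 and 9.16 in Hsp72Tg sham and 9.38 and 9.48 in WT sham, and its near-identical copy Hspa1a 8.28 and 8.53 in Hsp72Tg sham and 8.54 and 8.45 in WT sham. The species of the transgene is not in the labels, so this leaves the genotype labels unchecked. The neuronal genes Snap25 and Rbfox3 and the myelin gene Mbp read at least 12.08 in every array.

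The glutamate transporters come first. Slc1a2, the main glutamate transporter of the forebrain, had log2 values of 13.51, 13.61 and 13.42 in Hsp72Tg MCAO and 13.22 and 13.55 in Hsp72Tg sham. It had 13.51, 13.44 and 13.50 in WT MCAO and 13.44 and 13.43 in WT sham. The Hsp72Tg groups overlapped, and in WT the lowest MCAO array and the higher sham array were level at 2 decimals. Its change was 0.13 (SE 0.11, adjusted p = 0.677) in Hsp72Tg and 0.05 (SE 0.11, adjusted p = 0.926) in WT, both in limma. The Hsp72Tg change was -0.037 with Hsp72Tg sham 1 left out and 0.30 with Hsp72Tg sham 2 left out, and over both genotypes the change of 0.09 (SE 0.08) was 0.0069 and 0.17 in these fits. Slc1a3, the transporter that Bergmann glia of the cerebellum also carry at high level, ranged from 10.80 to 11.17 in Hsp72Tg MCAO against 10.78 and 11.17 in Hsp72Tg sham, and from 10.82 to 10.99 in WT MCAO against 10.98 and 11.15 in WT sham. MCAO and sham arrays overlapped in both genotypes, and its changes of 0.03 (Hsp72Tg) and -0.14 (WT) had the same SE of 0.15. In Hsp72Tg the change was -0.16 with Hsp72Tg sham 2 and -0.0479 with Hsp72Tg MCAO 2 left out. WT sham 1, the array with the cerebellar signal, held the higher of the WT sham values. Over both genotypes the Slc1a3 change of -0.05 (SE 0.10) was -0.01 with WT sham 1 left out and -0.0951 with WT sham 2 left out. The part of cerebellar tissue in the Slc1a3 values was not tested beyond leaving that array out.

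The channels of the astrocyte endfeet were among the most variable of the 10. Aqp4 had log2 values of 10.71, 10.76 and 10.68 in WT MCAO, all above 10.00 and 10.49 in WT sham. It had 10.34, 10.98 and 10.32 in Hsp72Tg MCAO and 10.51 and 10.42 in Hsp72Tg sham, where only 1 of the 3 MCAO arrays lay above the sham arrays. The WT change of 0.47 (SE 0.20, interval 0.01 to 0.92) had an adjusted p of 0.475 in limma. Leaving out WT sham 1 gave 0.22, this being the array with the cerebellar signal and the lowest Aqp4 value, and leaving out WT sham 2 gave 0.71. In Hsp72Tg the change was 0.08 (SE 0.20), and -0.14 with Hsp72Tg MCAO 2 left out. The difference of the MCAO changes, Hsp72Tg minus WT, was -0.39 (SE 0.29, interval -1.04 to 0.26, adjusted p = 1 in limma after rounding), and leaving out 1 array gave -0.14 (WT sham 1 left out), -0.64 (WT sham 2) or -0.61 (Hsp72Tg MCAO 2). Summed over the 10 cerebellar markers, log2 levels lay between 11.34 and 12.13 in Hsp72Tg MCAO, 11.99 and 12.27 in Hsp72Tg sham, 11.99 and 12.50 in WT MCAO, and 12.17 and 13.27 in WT sham. The part of cerebellar tissue in the Aqp4 values was not tested beyond leaving that array out.

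Kcnj10, whose product carries potassium into astrocytes and sets their resting potential, had log2 values of 10.67, 11.24 and 11.10 in Hsp72Tg MCAO and 10.59 and 10.91 in Hsp72Tg sham. In WT MCAO it had 11.50, 10.72 and 11.10, against 10.65 and 11.13 in WT sham. Groups overlapped throughout, and WT MCAO 1 was the highest array of all. The changes of 0.26 in Hsp72Tg and 0.22 in WT came with an SE of 0.25 each. With 1 array left out the WT change was -0.03 (WT sham 1), 0.46 (WT sham 2), 0.02 (WT MCAO 1) or 0.41 (WT MCAO 2). The Hsp72Tg change was 0.0998 (Hsp72Tg sham 1), 0.42 (Hsp72Tg sham 2), 0.43 (Hsp72Tg MCAO 1) or 0.14 (Hsp72Tg MCAO 2). Its residual SD of 0.33 was higher than that of 94.3% of all genes, and those of Gjb6, 0.31, and Aqp4, 0.26, higher than those of 93.3% and 88.2%.

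The connexins differed from each other in how much their arrays scattered. Gja1 had log2 values of 12.17, 12.17 and 12.12 in WT MCAO, all below 12.34 and 12.33 in WT sham. In Hsp72Tg MCAO it had 12.02, 12.58 and 12.29, on both sides of 12.44 and 12.32 in Hsp72Tg sham. The change was -0.18 (SE 0.14, adjusted p = 0.736) in WT and -0.08 (SE 0.14) in Hsp72Tg, in limma. The Hsp72Tg change was 0.0577 with Hsp72Tg MCAO 1 left out, -0.22 with Hsp72Tg MCAO 2, -0.0194 with Hsp72Tg sham 1 and -0.14 with Hsp72Tg sham 2. All 6 probe sets of Gja1 had values below 0 over both genotypes, from -0.61 to -0.11. The probe set at -0.61 (SE 0.26, adjusted p = 0.289 over all probe sets in limma) read 6.54 in WT MCAO 1 and 7.79 to 8.57 in the other 9 arrays. Gjb6, which was measured by 1 probe set, had log2 values of 10.15, 10.51 and 10.08 in Hsp72Tg MCAO and 10.27 and 9.93 in Hsp72Tg sham. It had 10.41, 10.07 and 10.03 in WT MCAO and 10.40 and 9.59 in WT sham. The pair of WT sham arrays alone spanned nearly the whole range of the gene, with WT sham 2 the lowest of all 10. Its change over both genotypes was 0.16 (SE 0.17), and single arrays moved it widely: it was 0.36 with WT sham 1 left out, -0.04 with WT sham 2, 0.25 with Hsp72Tg sham 1, 0.08 with Hsp72Tg sham 2, 0.10 with WT MCAO 1 and 0.09 with Hsp72Tg MCAO 2.

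**Figure D2:**
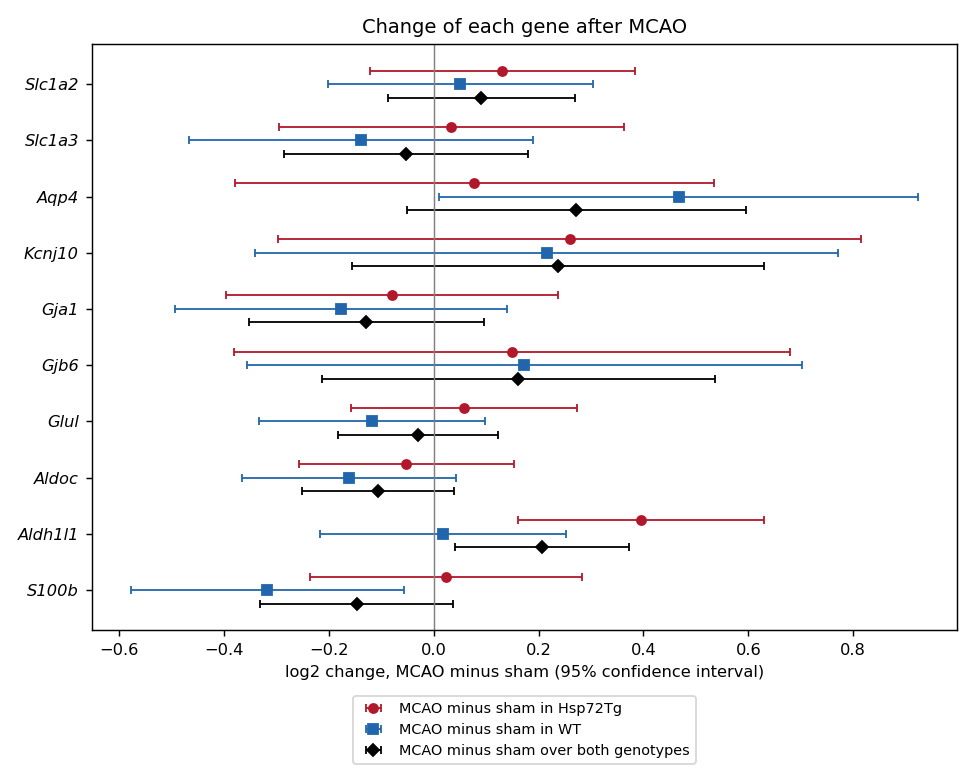
Log2 change of each gene, MCAO minus sham, with 95% confidence intervals from limma, in Hsp72Tg (circles), in WT (squares) and over both genotypes (diamonds). Most intervals cross 0; those of Aldh1l1 in Hsp72Tg and over both genotypes lie above it, that of Aqp4 in WT just above it and that of S100b in WT below it, before adjustment over all genes.

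The metabolic enzymes gave the tightest values. Glul ranged from 12.95 to 13.14 in Hsp72Tg MCAO against 12.96 and 13.02 in Hsp72Tg sham, and from 12.89 to 12.97 in WT MCAO against 12.97 and 13.14 in WT sham. Its range over all 10 arrays was 0.25, and MCAO and sham overlapped in both genotypes. Aldoc, the aldolase isoform of brain glycolysis, was the single gene of the 10 whose 6 MCAO arrays all lay below its 4 sham arrays. It had 13.68, 13.69 and 13.69 in Hsp72Tg MCAO, 13.69 and 13.78 in Hsp72Tg sham, 13.60, 13.66 and 13.67 in WT MCAO, and 13.71 and 13.90 in WT sham. In Hsp72Tg the gap between the groups was under 0.01, and of all genes 6.6% separated MCAO from sham over both genotypes in the same way or the opposite one. Its change over both genotypes was -0.11 (SE 0.06, adjusted p = 0.405 in limma), and in WT it was -0.16 (SE 0.09), with -0.06 when WT sham 1 was left out and -0.26 when WT sham 2 was. In Hsp72Tg its change was -0.05 (SE 0.09).

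Aldh1l1, a folate enzyme used as a marker of most astrocytes, stood apart through 1 group. It had log2 values of 9.97, 10.07 and 10.01 in Hsp72Tg MCAO and 9.50 and 9.74 in Hsp72Tg sham. In WT MCAO it had 10.01, 9.93 and 9.92, against 10.03 and 9.84 in WT sham. Only the Hsp72Tg sham arrays were low, below all 8 others. In Hsp72Tg the change after MCAO was 0.40 (SE 0.11, interval 0.16 to 0.63), with an unadjusted p of 0.00387 and an adjusted p of 0.321 in limma. In WT it was 0.02 (SE 0.11), and -0.0792 with WT sham 2 left out. The difference of the MCAO changes was 0.38 (SE 0.15, interval 0.05 to 0.71, adjusted p = 1 in limma after rounding), and Hsp72Tg minus WT after sham surgery was -0.31 (SE 0.12). Leaving out Hsp72Tg sham 1 gave an Hsp72Tg change of 0.28 and a difference of 0.26, and leaving out Hsp72Tg sham 2 gave 0.515 and 0.50. The gene's dim second probe set, at a mean of 6.25, had a change of 0.07 in Hsp72Tg and -0.04 in WT.

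S100b, a calcium-binding protein of astrocytes that some oligodendrocytes also make, showed its lowest values in WT MCAO. There it had log2 values of 10.49, 10.51 and 10.64, below 10.88 and 10.84 in WT sham. It had 10.60, 10.95 and 10.76 in Hsp72Tg MCAO and 10.82 and 10.67 in Hsp72Tg sham, which overlapped. The WT change was -0.32 (SE 0.12, interval -0.58 to -0.06), with an unadjusted p of 0.0218 and an adjusted p of 0.377 in limma. With limma's array weights it passed, at -0.31 and adjusted p = 0.0394, the single pass among all alternatives tried. Array weights gave more calls in general: over both genotypes 1116 of all genes passed with them and 266 without. The share of all genes passed with them in WT is not given here, so nothing particular to S100b is read from this pass. The other probe set of S100b, nearly as bright, had -0.13 in WT and 0.10 in Hsp72Tg. Hsp72Tg minus WT was 0.22 (SE 0.10, interval -0.01 to 0.46) after MCAO, and it was 0.13 without Hsp72Tg MCAO 2. Summed levels of 9 oligodendrocyte markers lay between 15.27 and 15.45 in Hsp72Tg MCAO and 15.29 and 15.40 in Hsp72Tg sham. In WT MCAO they lay between 15.24 and 15.35 and in WT sham between 15.25 and 15.30, overlapping in all 4 groups. Such sums are led by bright markers such as Mbp, and the single markers did not move alike. Over both genotypes 1 of the 9 fell in limma, Mog (-0.58, SE 0.12, adjusted p = 0.0477), and 0 rose, against 0.407% and 1.06% of all genes. Ugt8a had -0.73 (SE 0.24) and Cldn11 0.34 (SE 0.09), and the median of the 9 was -0.01.

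By genotype, WT MCAO and WT sham arrays did not overlap for 5 of the 10 genes. Slc1a2 and Aqp4 were above and Gja1, Aldoc and S100b below, while 39% of all genes did not overlap. In WT 0 of the 10 passed in limma and 2 (Aqp4 and S100b) had an unadjusted p under 0.05, against 0.055% and 10.2% of all genes. In Hsp72Tg the groups did not overlap for 2 genes, Aldh1l1 above and Aldoc below, against 21.9% of all genes. There 0 passed in limma and 1 (Aldh1l1) had an unadjusted p under 0.05, against 0.022% and 12% of all genes. With 10 genes, 5 and 2 separated are not far from these shares, and nothing particular to the 10 genes is read from them.

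The genotypes were compared within each surgery and by the difference of the MCAO changes. The study addresses effects of Hsp72 on astrocytes after stroke, and 0 of the 10 genes passed in these 3 comparisons. After MCAO, Hsp72Tg minus WT ran from -0.17 for Aqp4 to 0.22 for S100b, with 8 of 10 above 0. The median was 0.07, against -0.02 for all genes. Hsp72Tg MCAO 2 was the highest array of its group for all 10 genes, so these signs lean on 1 array. The share of all genes above 0 is not given here, and nothing is read from the counts of signs. In limma 0 passed and 0 had an unadjusted p under 0.05, against 0% and 2.68% of all genes. Aldoc alone did not overlap, above in Hsp72Tg by a change of 0.04 (SE 0.08), against 7.44% of all genes. After sham surgery Hsp72Tg minus WT ran from -0.31 for Aldh1l1 to 0.22 for Aqp4, with 7 of 10 below 0. The median was -0.07, against -0.0055 for all genes. Aldh1l1 and S100b did not overlap and were lower in Hsp72Tg, against 27% of all genes, and 0 of 10 passed in limma with 1 (Aldh1l1) under an unadjusted p of 0.05, against 0% and 1.56%. The difference of the MCAO changes ran from -0.39 for Aqp4 to 0.38 for Aldh1l1, with SE from 0.13 to 0.35. There 0 passed in limma and 1 (Aldh1l1) had an unadjusted p under 0.05, against 0% and 1.75% of all genes. These comparisons share arrays with each other and with the MCAO changes, so their values are not independent.

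Hsp72Tg MCAO 2 was the highest of the 3 Hsp72Tg MCAO arrays for all 10 genes and the highest of all 10 arrays for 8, the exceptions being Kcnj10 and Aldoc. Over all genes it was the highest of its group for 27.5% and the highest of all arrays for 13.2%. Its median deviation from the group mean over the 10 genes was 0.17, against -0.13 in Hsp72Tg MCAO 1 and -0.01 in Hsp72Tg MCAO 3. Gfap read 11.31 there, the lowest of the 6 MCAO arrays, while its score on the leading axis, 32.3, was the highest of all 10 arrays. Vim, another reactive astrocyte marker, read 10.91 there and was lowest of the 6 in Hsp72Tg MCAO 1, at 10.46. Of 8 neutrophil markers 0 passed over both genotypes in limma, and their summed levels spanned 9.01 to 12.05 in Hsp72Tg MCAO, against 9.17 to 9.29 in Hsp72Tg sham, 10.31 to 11.03 in WT MCAO and 8.82 to 9.68 in WT sham. Their part in the member values was not tested. Among the WT arrays, WT sham 1, the array with the cerebellar signal, was the higher sham array for 8 of 10 genes. Its median deviation from the genes' means over all 10 arrays was 0.13, against 0.21 in Hsp72Tg MCAO 2. The share of all genes for which WT sham 1 was the higher sham array is not given here. No WT MCAO array was the highest of its group for more than 5 of the 10.

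**Figure D3:**
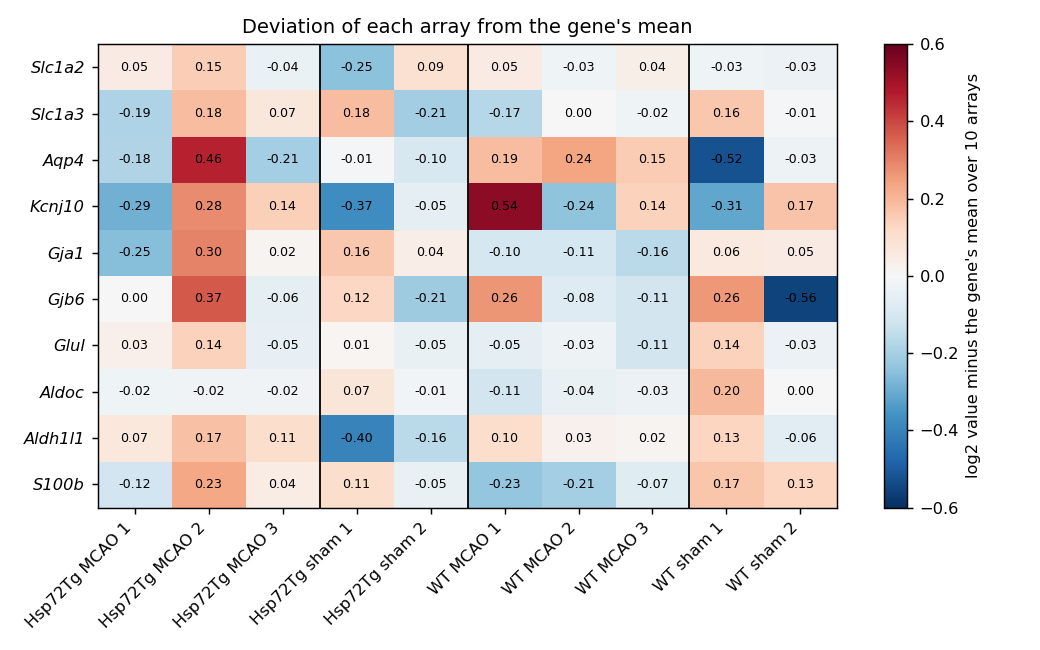
Log2 value of each gene in each array minus the gene's mean over the 10 arrays, from blue (lower) to red (higher), with black lines between the groups. The column of Hsp72Tg MCAO 2 is above 0 for every gene except Aldoc, the darkest blue cells are Gjb6 in WT sham 2 (-0.56) and Aqp4 in WT sham 1 (-0.52), and the darkest red cell is Kcnj10 in WT MCAO 1 (0.54).

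The 10 genes also differed in how alike their profiles were. Likeness was measured as the root mean square difference between profiles over the 10 arrays, each profile minus its own mean. Among the 45 pairs Glul and Aldoc were closest at 0.07, followed by Gja1 and S100b at 0.09 and Slc1a3 and S100b at 0.10, while Kcnj10 and Gjb6 were farthest apart at 0.38. Flat profiles are close by construction, since Glul and Aldoc deviated from their own means by 0.08 each and Kcnj10 by 0.29. Outside the 10, the closest genes to Gja1 were Ntsr2, a receptor typical of astrocytes, at 0.06, then Cdk2ap1 and Cabp5 at 0.07. Those of Slc1a2 were Abl1, Dnajc7 and Chd4, of Slc1a3 Kdm6a, Pard6g and Serpinb6e, of Glul Mtarc1, Zfp112 and Ccny, and of Aldoc Rad54b, Sharpin and Kif27, all at 0.03 to 0.07. Those of Aldh1l1 were Adam15, Med25 and Oplah and those of S100b Kifc1, Rpe65 and Poldip3, at 0.07 to 0.08. Distances scale with a gene's own scatter, and for the most scattered genes Inhba, Slc7a2 and Chst11 lay 0.11 to 0.13 from Aqp4, Ahnak2, Fgf18 and Saa1 0.13 to 0.15 from Kcnj10, and Ddit4, C6 and Gabrr2 0.13 to 0.15 from Gjb6.

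Most of the 10 genes had further probe sets, 30 in all, and these set limits on the values above. Over all 45037 probe sets 0 of the 30 passed in limma in any of the 6 comparisons, against 0.433% of all probe sets for MCAO minus sham over both genotypes, 0.00444% in WT and 0% in the other 4. For Slc1a2 the 5 probe sets disagreed, and those described here, like the one of Gja1 above, were picked after their values were seen. The brightest had a change of 0.09, and a probe set at a mean of 9.97 had 1.20 (SE 0.29, adjusted p = 0.104 in limma over all probe sets). That probe set read 9.94, 10.33 and 11.003 in Hsp72Tg MCAO and 10.12 and 9.83 in Hsp72Tg sham. In WT it read 11.10, 10.72 and 9.62 after MCAO, against 8.46 and 8.58 after sham surgery. The WT sham pair was thus the only low group, with a WT change of 1.96 (SE 0.41, unadjusted p = 0.000813, adjusted p = 0.200), and Hsp72Tg minus WT after sham surgery was 1.46 (SE 0.44). Another Slc1a2 probe set, at a mean of 8.58, read 8.20 and 8.27 in WT sham and 8.49 to 9.03 in the other 8 arrays, with a change of 0.32 (SE 0.08, adjusted p = 0.126) over both genotypes. Which part of the Slc1a2 transcript each probe set reads is not in the sources used here. A probe set annotated to Slc1a2 and another gene together was left out.

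For Glul and Aldoc the brightest and the dimmer probe set pointed opposite ways over both genotypes, at -0.03 (SE 0.07) and 0.23 (SE 0.12) for Glul and at -0.11 and 0.14 (SE 0.14) for Aldoc. The brightest probe sets of Slc1a2, Glul and Aldoc lay at the 99.8th, 99.5th and 99.9th percentiles of all probe sets. For Aqp4 the pair of bright probe sets had 0.27 and 0.32, and a dimmer one had -0.10 (SE 0.23). The 6 probe sets of Slc1a3 ran from -0.05 to 0.22, with 5 above 0.

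**Figure D4:**
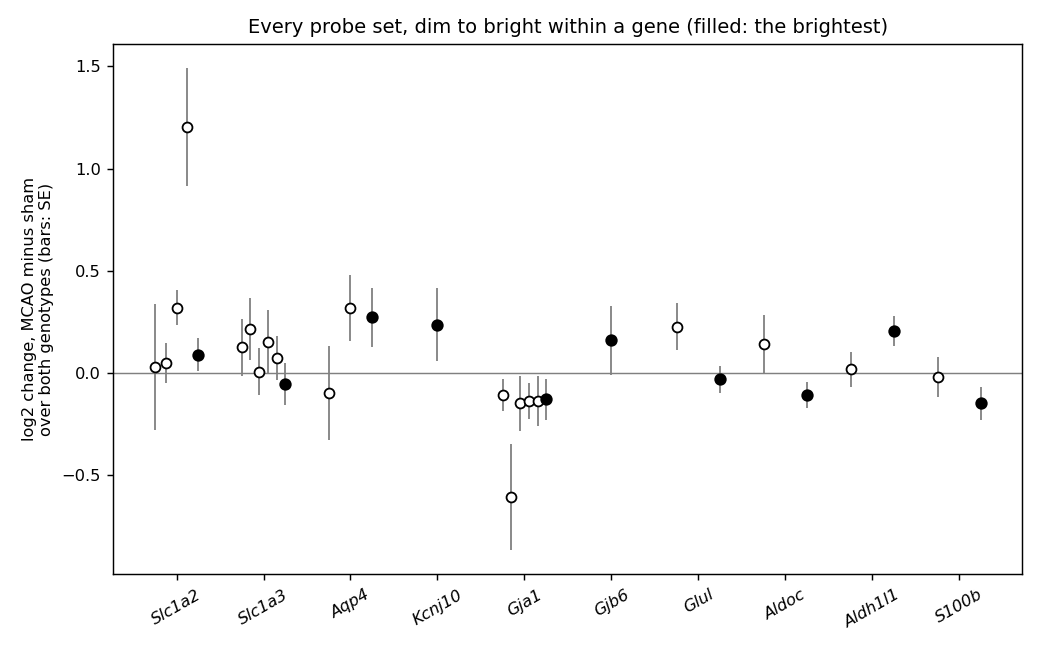
Log2 change, MCAO minus sham over both genotypes, of all 30 probe sets of the 10 genes with SE from limma, from dim to bright within each gene; filled points are the brightest, which represent the gene elsewhere. The Slc1a2 probe set at 1.20 and the Gja1 probe set at -0.61 lie away from the others.

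Beside the 10 stand 6 lists of related genes, with 80 genes measured. Over both genotypes 7 rose in limma and 0 fell, against 1.06% and 0.407% of all genes, and the median change over the 80 was 0.01. Of 9 genes for glutamate, GABA and amino acid transport 1 rose, Slc1a4, a carrier of serine and alanine from the same family as the glutamate transporters. It had log2 values of 8.85, 9.19 and 9.19 in Hsp72Tg MCAO, 8.48 and 8.49 in Hsp72Tg sham, 9.54, 9.31 and 9.19 in WT MCAO, and 8.48 and 8.59 in WT sham. Its MCAO arrays all lay above its sham arrays, and its change was 0.70 (SE 0.10, adjusted p = 0.0163). The cystine and glutamate exchanger Slc7a11 had 0.72 (SE 0.25) and the serine carrier Slc7a10 -0.32 (SE 0.10), neither of which passed. Of 13 genes for water, potassium and ion handling 0 passed in limma. The largest value was that of dystrophin Dmd (-0.50, SE 0.12, adjusted p = 0.0716 in limma), though its 4 probe sets ran from -0.50 to 0.17. Next came the cation channel Trpv4 (0.34, SE 0.11) and the potassium channel Kcnj16 (-0.28, SE 0.10), a partner of Kcnj10.

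Of 10 other connexins, pannexins and junction partners 1 rose, Gja4, a connexin of arterial endothelium, by 0.72 (SE 0.11, adjusted p = 0.0271). Of 9 endothelial markers 2 rose and 0 fell in limma. Pecam1 rose by 1.003 (SE 0.18, adjusted p = 0.0350) and Cldn5 by 0.65 (SE 0.12, adjusted p = 0.0360). The markers did not move alike: Slco1a4 (-0.79, SE 0.30), Abcb1a (-0.39, SE 0.16) and Tek (-0.25, SE 0.28) were below 0. Cdh5, Esam, Flt1 and Kdr were above 0, and none of these passed. The median change of the 9 markers was 0.60. Summed endothelial levels lay between 11.69 and 12.32 in Hsp72Tg MCAO, 11.89 and 11.94 in Hsp72Tg sham, 11.96 and 12.18 in WT MCAO, and 11.83 and 11.87 in WT sham, and their part in the Gja4 value was not tested. Gjb2, a connexin gene mutated in inherited deafness, had 1.20 (SE 0.41, adjusted p = 0.152) and Gjd2, the connexin of electrical synapses between neurons, -0.43 (SE 0.14). Of 20 genes of glutamine, one-carbon, lactate, glycogen and lipid metabolism 1 rose, the lactate carrier Slc16a1, by 0.47 (SE 0.08, adjusted p = 0.0283), though its other probe set had -0.03. The glucose carrier Slc2a1 had 0.68 (SE 0.18, adjusted p = 0.0900) and the glycine-cleaving enzyme Gldc -0.42 (SE 0.12). The other S100 genes held the most passes, with 3 of 8: S100a6 by 1.44 (SE 0.26), S100a4 by 1.26 (SE 0.22) and S100a10 by 0.78 (SE 0.13), and the median change of the 8 was 1.02. S100a8 (2.38, SE 0.78) and S100a9 (2.49, SE 0.78), which did not pass and are named here after their values were seen, are also neutrophil markers, and the median of the other 6 was 0.63. S100b had -0.15 with an interval of -0.33 to 0.04, and -0.02 in its other probe set. Its change in Hsp72Tg was 0.02, so its sign is not settled and no contrast with its family is read from it. S100a1 had -0.02 (SE 0.11).

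Of 20 other identity genes of normal astrocytes 1 rose, the urea transporter Slc14a1. It had log2 values of 8.05, 8.84 and 9.19 in Hsp72Tg MCAO and 7.22 and 7.39 in Hsp72Tg sham. It had 9.08, 9.02 and 9.20 in WT MCAO and 7.28 and 7.57 in WT sham. All 6 MCAO arrays lay above all 4 sham arrays, with a change of 1.53 (SE 0.19, adjusted p = 0.0113 in limma). Sox9, a transcription factor of astrocyte identity, had 0.58 (SE 0.15, adjusted p = 0.0898 in limma), and its 3 probe sets ran from 0.05 to 0.58. Itih3 had 0.46 (SE 0.23). Changes below 0 were nearly as large, as in Id4 (-0.45, SE 0.11, adjusted p = 0.0695 in limma) and Slco1c1 (-0.44, SE 0.18). Id4 and Slco1c1 are named here after their values were seen. The median change of the 20 was 0.12, and 0 of them fell at the threshold. The 7 calls depended on single arrays, and so did the calls over all genes. Leaving out WT sham 1 or WT MCAO 3 left 0 of the 7, leaving out WT sham 2, WT MCAO 2 or Hsp72Tg sham 1 left 1, and leaving out WT MCAO 1 or Hsp72Tg sham 2 left 2. Leaving out any Hsp72Tg MCAO array left all 7, and with Hsp72Tg MCAO 1 left out 21 of the 80 genes passed. Of all genes 266 passed with every array kept. That number fell to 27, 40 and 15 when WT MCAO 1, 2 and 3 were dropped in turn. It rose to 2251 when Hsp72Tg MCAO 1 was dropped. Nothing particular to the 7 or the 80 genes is thus read from these counts. Within a genotype 0 of the 80 passed in limma.

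**Figure D5:**
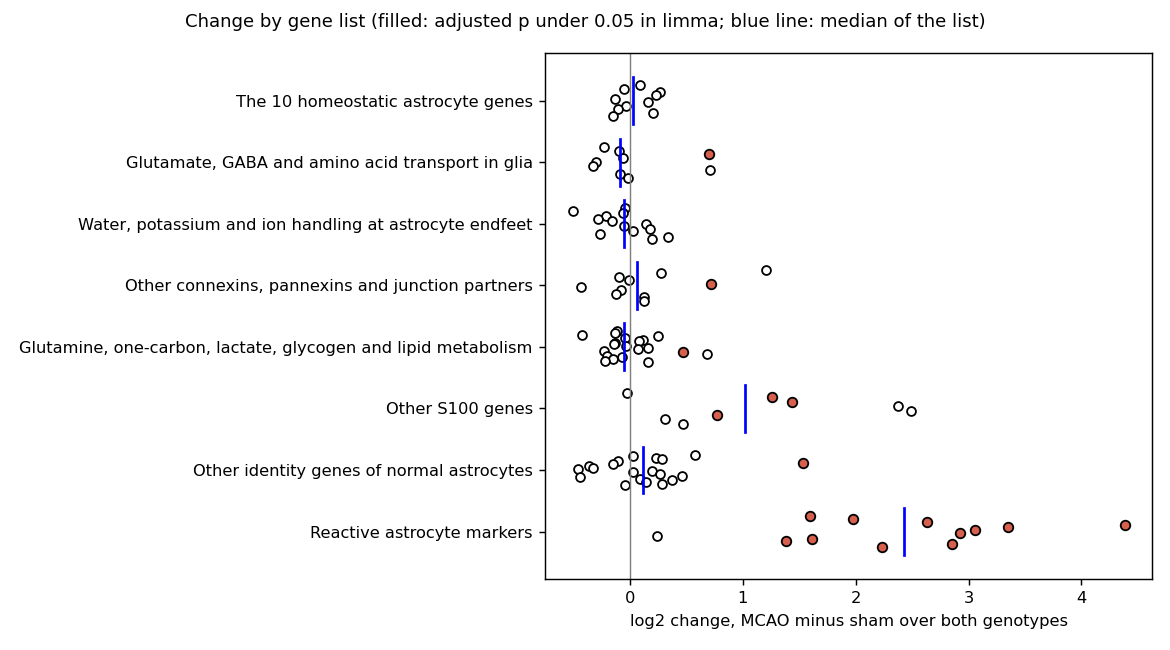
Log2 change, MCAO minus sham over both genotypes, of each gene (points) in the 10 homeostatic astrocyte genes, the 6 related lists and the reactive astrocyte markers, with the median of each list (blue line); filled points passed at an adjusted p under 0.05 in limma. The 10 homeostatic genes lie between -0.15 and 0.27, and 11 of 12 reactive markers are filled.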

How the data were processed

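The deposited values are log2 expression values per probe set, and the submitters' processing notes name RMA as the method, with no version or settings stated there. Array medians lay between 6.675 and 6.733, and no array pair shared over 0.071% of values. Precision is limited by the number of arrays. Of 45101 probe sets, 64 controls were left out; 34945 had 1 gene symbol, 932 several and 9160 were not listed. Symbols were checked through RefSeq (GRCm38.p6; 34741 matched, 0 changed).

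Tests used limma 3.58.1 in R 4.3.3 (lmFit, contrasts.fit, eBayes; 1 mean per group, all 10 arrays, 6 residual and 3.724 prior degrees of freedom), 2-sided, with Benjamini-Hochberg adjustment over 18193 genes, and were tested on simulated data. SEs and 95% intervals come from this fit; SDs are within groups. The members and lists were chosen with earlier results of these data known. Named genes were the 10 members, for each related list those that passed and otherwise the largest changes up to 3, and the 3 nearest profiles per member (clone and predicted names passed over), with Hspa1a and Hspa1b as the label check. Marker lists are sums of linear values. Alternatives changed the normalization, the probe set per gene, the filter on dim genes, the eBayes settings, array weights, the replicate block and single arrays. Coordinates are not given because the deposited values come with no stated build.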

Additional observations from a re-analysis of the deposited data

How the results depend on the processing

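Of the 10 genes, 0 passed in each comparison under every alternative run, except for MCAO minus sham in WT, where limma's array weights gave 1 (S100b). Over both genotypes 5 of 10 genes kept their sign in all 20 alternatives, and 4 in WT and 2 in Hsp72Tg did so in all 21. Using the mean over probe sets turned Slc1a3 to 0.0874, Glul to 0.10 and Aldoc to 0.0183 over both genotypes, and the most variable probe set turned Slc1a3 to 0.22, Glul to 0.23, Aldoc to 0.14 and Aqp4 to -0.10, with Aqp4 at -0.19 and Aldoc at 0.0691 in WT, Aqp4 at -0.0053 and Aldoc at 0.22 in Hsp72Tg, Aldoc at -0.19 and Aqp4 at 0.22 for Hsp72Tg minus WT after MCAO, and the Aqp4 difference of MCAO changes at 0.18. The mean over probe sets also gave Aldoc 0.0827 in Hsp72Tg and -0.0741 for Hsp72Tg minus WT after MCAO, and Aldh1l1 -0.0089 in WT; by construction these read other probe sets. Without WT sham 1 and Hsp72Tg MCAO 1 together, Slc1a3 was 0.042 and Glul 0.0153 over both genotypes, Kcnj10 was -0.0256 in WT, Gja1 was 0.0577 in Hsp72Tg, and Aqp4 was -0.0235 for Hsp72Tg minus WT after sham surgery. Leaving out 1 array, changes over both genotypes spanned -0.15 to 0.0456 for Slc1a3, -0.0425 to 0.36 for Gjb6 and -0.0731 to 0.0131 for Glul, and the Aqp4 difference after sham surgery spanned -0.0235 to 0.47. In WT they spanned -0.0256 to 0.46 for Kcnj10 and -0.0792 to 0.11 for Aldh1l1, and in Hsp72Tg -0.037 to 0.30 for Slc1a2, -0.16 to 0.23 for Slc1a3, -0.22 to 0.0577 for Gja1 and -0.14 to 0.19 for Aqp4. Aqp4 was -0.15 in Hsp72Tg without Hsp72Tg MCAO 1 and 2.

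The replicate numbers of the labels were not taken as pairs in the main fit. Of 13 same-numbered pairs 2 had deviations from the group mean correlated over 0.1, between -0.16 and 0.25 in all. Differently numbered pairs were not compared, and in a group of 2 the deviations mirror each other. These correlations thus cannot show whether the arrays were paired. With the replicate number as a block 0 of the 10 passed, Glul turned to 0.0038 over both genotypes, and 1 of the 80 related genes passed in place of 7. That count was 15 with array weights, 0 to 21 leaving out 1 array, 18 without WT sham 1 and Hsp72Tg MCAO 1, and 22 without Hsp72Tg MCAO 1 and 2, a pair chosen after seeing the data. The cause was not tested. Of all genes 266 passed over both genotypes, against 1116 with array weights, 19 with the block, 11 to 2251 leaving out 1 array, 178 with quantile normalization and 164 with the most variable probe set. Centring arrays on their medians shifted all genes by -0.01. Precision is set by 2 or 3 arrays a group, and scanner background flags were not used here.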
